A study of Mus musculus with 12 samples.

Results

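Ndufa4, a subunit of cytochrome c oxidase, and its 2 relatives in the mouse genome, AA467197 (also called Nmes1) and Ndufa4l2, were followed through RNA-seq libraries of mouse cornea. These 3 genes are the whole family considered, out of 21203 genes tested. They were chosen by kinship to Ndufa4 and by the values of AA467197 and Ndufa4 in the DED model against controls in these same libraries. That contrast, and the others that share its libraries, are therefore described below and not tested. DED is a mouse model of dry eye disease. There were 3 libraries from DED mice given exosomes intravenously (i.v.), 2 independent libraries from DED mice given an exosome eye drop, 3 from DED mice given neither, and 3 from control mice without treatment. Exosomes are membrane vesicles that cells shed, derived here from stem cells according to the series title. All mice were labelled wild type, all RNA came from cornea, and all samples carry the same batch date, so no batch split was possible. The labels used here give no strain, sex, age, dose or duration, do not say how the dry eye was induced, and name no DED group that received a vehicle alone by either route. What belongs to the exosomes and what to the drop, the injection or the handling therefore cannot be told apart. Nothing in the labels says that replicates came from separate animals, so the spread between samples may be partly technical.

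NDUFA4 sits in complex IV, the respiratory enzyme that passes electrons to oxygen at the end of the mitochondrial chain. It carries a complex I name because it was first assigned there. Work in human and mouse cells has shown that the AA467197 protein (C15orf48 in humans) is induced by inflammatory stimuli in macrophages and epithelia and can take the place of NDUFA4 in complex IV. Its transcript also carries a microRNA hairpin, miR-147, and the human counterpart of that microRNA is known to lower NDUFA4. NDUFA4L2 is a target of the hypoxia factor HIF-1 and restrains respiration when oxygen is low. In the cornea, a tissue without vessels of its own, respiration and glycolysis both feed the surface epithelium.

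The 3 coding sequences share a stretch that shows how close the relatives are. Each line below gives 60 coding bases, 5′ to 3′, joined across exons, with the 35 bases that are identical in all 3 genes in capitals. They were read from the GENCODE annotation of the build GRCm38.
AA467197: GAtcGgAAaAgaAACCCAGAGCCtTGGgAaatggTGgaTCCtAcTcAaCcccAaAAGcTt
Ndufa4: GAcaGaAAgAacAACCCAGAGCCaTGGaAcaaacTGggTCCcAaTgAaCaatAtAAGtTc
Ndufa4l2: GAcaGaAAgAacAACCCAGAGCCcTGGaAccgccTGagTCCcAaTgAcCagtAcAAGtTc
The longest shared run of bases between AA467197 and Ndufa4 was 11 bases, and that between Ndufa4 and Ndufa4l2 was 28 bases. These runs were sought in the whole transcripts, untranslated regions included. Over the aligned proteins, AA467197 and Ndufa4 shared 28 of 78 residues (35.9%). Ndufa4 and Ndufa4l2 were closer, with 58.5% of residues identical, and AA467197 and Ndufa4l2 shared 31.6%. Ndufa4 also has 3 processed pseudogenes that match at least 80% of its coding sequence at 84.2% to 93.1% identity. None of them had a line under its symbol in the deposited table. The count of Ndufa4 is uncertain where reads could be assigned to either. AA467197 and Ndufa4l2 had no such copy.

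On GRCm38, AA467197 is on chromosome 2, plus strand, 122636986 to 122641191, and encodes 83 residues. Ndufa4 is on chromosome 6, minus strand, 11900292 to 11907497, and encodes 82 residues. Ndufa4l2 is on chromosome 10, plus strand, 127514967 to 127517154, and encodes 87 residues. The deposited table names genes by symbol alone and was made on the earlier build mm9, so these positions describe the genes and not the mapping. The Mir147 hairpin (chromosome 2, 122640803 to 122640881) falls inside the 3′ untranslated region of AA467197, which runs from 122640767 to 122641191. The mature miR-147-5p from RefSeq (GRCm38.p6, chr2:122640814-122640837, plus strand) is shown because the same transcript carries it. Its seed, bases 2 to 8, is in capitals. This is the 5p arm of the hairpin, and the lowering of NDUFA4 named above is not ascribed to it here. No match of this seed to Ndufa4 was sought.
miR-147-5p: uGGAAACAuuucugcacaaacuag
The microRNA itself was not analysed here, and reads of the hairpin that belong to the host transcript cannot be told apart from it.

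**Figure D1:**
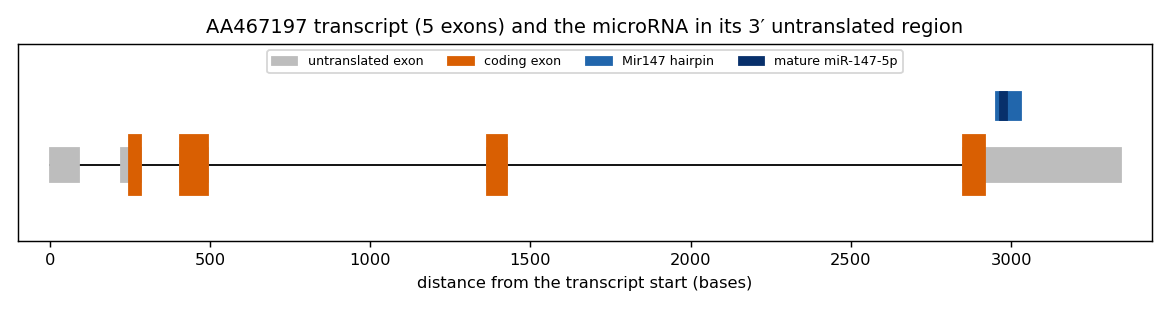
Map of the 5-exon AA467197 transcript, with distance from the transcript start in bases on the x axis. Tall boxes are coding exons, low grey boxes untranslated exons, and the blue boxes the Mir147 hairpin and its mature miR-147-5p, both of which lie in the last exon, past the coding part.

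The stretch upstream of the RefSeq start of AA467197 is shown because inflammation and hypoxia genes are examined further down. It lies inside the GENCODE span given above, in an intron of a longer annotated transcript that starts further upstream. It covers 95 bases outside annotated exons (RefSeq, GRCm38.p6, chr2:122637755-122637849, plus strand, positions -132 to -38 from the RefSeq start), with motif matches in capitals.
AA467197 promoter: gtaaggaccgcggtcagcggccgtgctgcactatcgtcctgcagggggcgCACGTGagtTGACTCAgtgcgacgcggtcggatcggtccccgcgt
Motifs were searched on both strands of windows of 300 bases. ACGTG, the core of the hypoxia response element, matched once on each strand in overlapping positions between -82 and -77, and 19.6% of 32851 promoters hold it. TGANTCA, the site of AP-1 factors, matched between -73 and -67, and 7.8% of promoters hold it. The NF-kB consensus, found in 4.5% of promoters, had no match in this window, and none of the 3 motifs had one in that of Ndufa4. A match is a description of letters and says nothing of whether a factor binds.

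Library totals were 8956553 to 9501661 counts with i.v. exosomes, 12571461 to 13687074 with the eye drop, 10355125 to 14263045 in the DED model and 10893978 to 12972945 in controls. Values below are normalized counts, that is counts divided by a size factor for each library, unless a log2 scale is named. Corneal epithelium markers were all measured (10 of 10), were at 0 in no library, and summed to 819800 to 975900 with i.v. exosomes, 873100 to 885300 with the eye drop, 800100 to 1010000 in the DED model and 657700 to 947800 in controls. Traces of neighbouring tissue differed between libraries: skeletal muscle markers were highest in i.v. replicate 1, lens markers in eye drop replicate 2 and retina markers in DED replicate 3. The skeletal muscle sum was 9008, 4779 and 257.3 in i.v. replicates 1, 2 and 3, and 121.5 to 1187 in the other groups. Leaving out i.v. replicate 3 raised the genes called between the i.v. and eye drop groups to 637, against 0 with it, so this library stood apart within the i.v. group. Fits without it keep the i.v. libraries with the higher muscle sums. The part of muscle in the i.v. values was not tested.

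AA467197, the inflammation-linked relative, was 4.51-fold higher with i.v. exosomes, 3.83-fold higher with the eye drop and 3.48-fold higher in the DED model than in controls. In bulk tissue, fewer cells of a type and less RNA per cell cannot be told apart. AA467197 had 821.5, 820.8 and 1187 normalized counts with i.v. exosomes, 931.6 and 666.7 with the eye drop, 681.8, 735.7 and 729.7 in the DED model, and 147.2, 205 and 285.5 in controls. Every control lay below every other library, while the eye drop range enclosed the DED range and overlapped that of the i.v. group. On normalized counts, all 3 i.v. libraries lay above all 3 DED libraries. Before scaling these groups overlapped, with 626, 586 and 821 reads with i.v. exosomes and 900, 666 and 836 in the DED model. The share of all genes that separate groups in this way is not given, here or for Ndufa4 and Ndufa4l2. Group means ran in the order i.v. (943 ± 211.1, SD, n = 3), eye drop (799.2, n = 2), DED (715.8 ± 29.53, SD, n = 3) and control (212.6 ± 69.44, SD, n = 3). The gap between the i.v. and DED means was close to the SD of the i.v. group. The log2 fold change was 1.80 (SE 0.23) between DED and control, 1.94 (SE 0.25) between eye drop and control and 2.17 (SE 0.23) between i.v. and control. Those 3 comparisons share the control libraries. Against the DED model, which the treated groups share, it was 0.14 (SE 0.25) with the eye drop and 0.38 (SE 0.23) with i.v. exosomes.

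Ndufa4, the complex IV subunit, was also lowest in controls, and its treated groups lay on either side of the DED model. It had 8577, 10870 and 7065 normalized counts with i.v. exosomes, 5568 and 6391 with the eye drop, 8308, 7039 and 8250 in the DED model, and 2764, 3488 and 3833 in controls. No control reached any other library, both eye drop libraries lay below all 3 DED libraries, and the i.v. range overlapped the DED range. Means were 8836 ± 1913 with i.v. exosomes (SD, n = 3), 5979 with the eye drop (n = 2), 7866 ± 716.4 in the DED model (SD, n = 3) and 3361 ± 545.5 in controls (SD, n = 3). On the log2 scale the difference from control was 1.39 (SE 0.19) for i.v. exosomes, 0.84 (SE 0.21) for the eye drop and 1.24 (SE 0.19) for the DED model. Relative to the DED model it was 0.15 (SE 0.19) with i.v. exosomes and -0.39 (SE 0.21) with the eye drop.

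Ndufa4l2, the HIF-1 target of the family, had few reads. Its normalized counts were 14.44, 33.61 and 30.35 with i.v. exosomes, 32.4 and 2.479 with the eye drop, 4.546, 17.68 and 9.601 in the DED model, and 3.699, 5.775 and 2.799 in controls. These came from 3 to 36 reads per library, and the eye drop pair spanned nearly the whole range. Only the i.v. and control groups did not overlap, with means of 26.14 ± 10.26 and 4.091 ± 1.526 (SD, n = 3 each). The log2 fold change between them was 2.37 (SE 0.71), against 1.06 (SE 0.71) between the DED model and controls and 1.31 (SE 0.71) between i.v. exosomes and the DED model. Without eye drop replicate 1 the difference between eye drop and DED was -1.57, and without replicate 2 it was 1.70, so no direction can be given for the eye drop. All 3 genes passed the filter on low values and had reads in all 11 libraries.

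**Figure D2:**
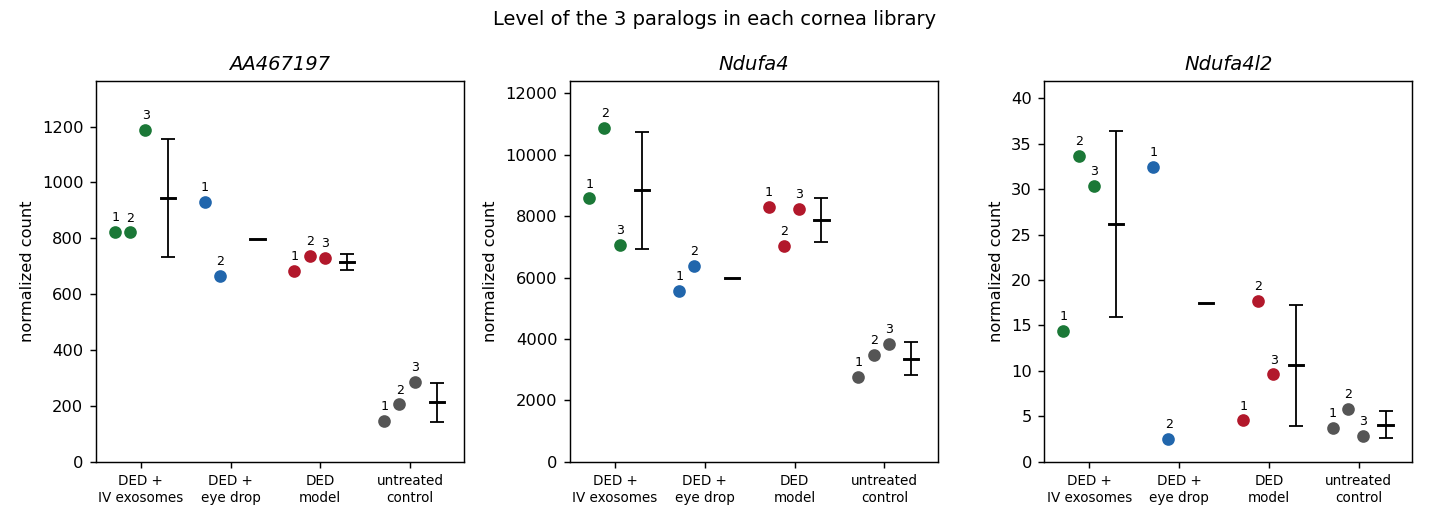
Normalized counts (y axes, linear, from 0) of AA467197, Ndufa4 and Ndufa4l2 in each library, numbered by replicate, with the group mean as a short line and the SD as a bar for groups of 3. The controls sit below all other libraries for AA467197 (147.2 to 285.5) and Ndufa4 (2764 to 3833), and the 2 eye drop libraries are far apart for Ndufa4l2.

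The means compared between the exosome routes share no library with the contrast that drew attention to these genes, so this comparison was tested. Its SE, intervals and p-values still rest partly on the DED and control libraries, because all groups were fitted together and share the spread. With limma and Benjamini-Hochberg adjustment over 21203 genes, none of the 3 genes differed between i.v. and eye drop at an adjusted p of 0.05. Neither did any other gene (0%), although 1953 had an unadjusted p under 0.05. Limma voom also called 0 genes, and limma without trend and robust estimation called 1. Ndufa4 was higher in all 3 i.v. libraries than in both eye drop libraries, by 0.54 on the log2 scale (SE 0.21, adjusted p = 0.453, 95% interval 0.092 to 0.997 before adjustment). Without i.v. replicate 3 it was 0.695 (adjusted p = 0.0487), and without any adjustment for library size it was -0.14 (adjusted p = 0.739). AA467197 differed by 0.24 (SE 0.25, adjusted p = 0.801, interval -0.300 to 0.773), with overlapping libraries. The interval for Ndufa4l2 ran from -0.431 to 2.925 around 1.25 (SE 0.79, adjusted p = 0.651).

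Because the family shares one enzyme, levels were next compared within a library. Per kilobase of transcript (792 bases for AA467197, 610 for Ndufa4), the number of AA467197 reads for every 100 of Ndufa4 was 7.377, 5.816 and 12.94 with i.v. exosomes. It was 12.89 and 8.035 with the eye drop, 6.321, 8.05 and 6.812 in the DED model, and 4.102, 4.527 and 5.737 in controls. Controls were thus lowest in this ratio, which no scaling between libraries can move, and all other libraries lay above them. The margin was small, with 5.737 in the highest control and 5.816 in the lowest i.v. library. Both genes were chosen by their DED and control values, so nothing is read from the place of the controls. The i.v. and eye drop groups each held 1 library near 13. Ndufa4 stayed the more abundant transcript per length in all 11 libraries.

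Relative to its own complex, Ndufa4 was highest in the DED model. Its log2 level minus the median of 14 complex IV subunits of the same library was 1.781, 1.88 and 2.068 with i.v. exosomes and 1.824 and 1.833 with the eye drop. In the DED model it was 2.413, 2.223 and 2.284, above all other libraries, and in controls 1.403, 1.662 and 1.665, below all others. Both treated groups therefore lay between the DED model and the controls on this measure, which does not depend on scaling between libraries. The DED and control values are part of how Ndufa4 was chosen. Nothing is read from their gap or from the place of the treated groups between them. Between i.v. exosomes and the DED model, Ndufa4 itself had a log2 fold change of 0.15, and the 19 measured complex IV subunits a median of 0.53. After scaling between libraries, the lower i.v. values on this measure came with higher levels of the subunits. Those fold changes depend on the scaling: left unscaled, Ndufa4 had -0.47. The 19 subunits also include low-count ones, such as Cox8b, that are not among the 14. The mean was 1.91 ± 0.146 with i.v. exosomes (SD, n = 3), 1.83 with the eye drop (n = 2), 2.31 ± 0.097 in the DED model (SD, n = 3) and 1.58 ± 0.150 in controls (SD, n = 3). The same measure for AA467197 was -1.845 to -0.504 with i.v. exosomes, -1.426 and -0.754 with the eye drop, -1.213 to -1.033 in the DED model and -2.819 to -2.077 in controls. For AA467197 only the controls stood apart, and i.v. replicate 3 was the highest of all.

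**Figure D3:**
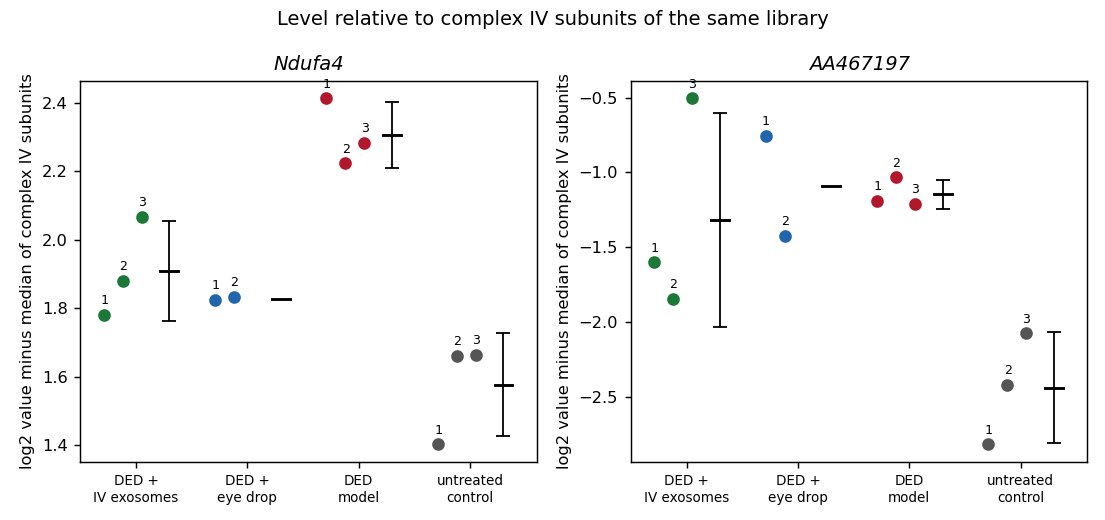
Log2 level of Ndufa4 (left) and AA467197 (right) minus the median of 14 complex IV subunits in the same library (y axes, log2 units), with points numbered by replicate, a short line for the mean and a bar for the SD of groups of 3. The 3 DED libraries are highest for Ndufa4 (2.223 to 2.413), and the 3 controls are lowest for both genes.

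The other genes of complex IV had mostly small positive differences between DED and control. Ndufa4 was chosen by its value there, so its place among them is a description from which nothing is read. In that comparison 1.25% of all genes tested passed, and 0 of 19 measured complex IV subunits passed, with a median log2 fold change of 0.46 against 0.03 for all genes. Only Cox6b2 (1.45, SE 0.55) and Cox8b (1.85, SE 1.15), a testis and a muscle isoform with few reads, had larger values than Ndufa4. Cox7a2, a structural subunit, had the smallest p of the list and did not pass (0.73, SE 0.21, adjusted p = 0.0968). Complex I, the entry enzyme of the chain, likewise had 0 of 36 subunits passing (median 0.39), and none had a value as large as that of Ndufa4. Ndufb4 came closest (0.75, SE 0.22, adjusted p = 0.0983). Of 27 assembly factors of complex IV none passed (median 0.05). Higd1a, which promotes complex IV assembly under low oxygen, had 0.80 (SE 0.23, adjusted p = 0.102).

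Inflammation and hypoxia genes were examined because AA467197 and Ndufa4l2 belong to those responses. Of 23 measured NF-kB and LPS response genes 1 rose in the DED model against control: Il1a, the alarm cytokine of damaged epithelium, averaged 783.7 ± 79.98 in the DED model and 388.9 ± 50.17 in controls (SD, n = 3 each), a difference of 1.01 on the log2 scale (SE 0.20, adjusted p = 0.0196). The list's median was 0.72 and 19 of its 23 genes were above 0. This count of 1 became 0 without control replicates 1 or 2, or DED replicates 1 or 3, and 7 without i.v. replicate 3, where 1231 of all genes passed against 265 with it. None of 26 HIF-1 targets passed (median 0.43), and Ldha, which makes lactate from pyruvate, came closest (0.85, SE 0.21, adjusted p = 0.0534). Without i.v. replicate 3, 5 of them passed among those 1231 genes.

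After the eye drop, 0.193% of all genes passed against the DED model, and none did of any of the 5 lists. The complex IV subunits had a median of 0.01 and complex I subunits one of -0.14, and 16 of 19 complex IV subunits had a larger value than the -0.39 of Ndufa4. The NF-kB list had a median of -0.52, with 4 of 23 genes above 0, whereas AA467197 had a value of 0.14. Ccl20, a chemokine for dendritic and T cells, was at 0 in both eye drop libraries, against a mean of 5.684 ± 1.178 in the DED model (SD, n = 3), and did not pass (adjusted p = 0.28). HIF-1 targets had a median of -0.28, and Slc2a1, the glucose carrier of epithelia, had -0.79 (SE 0.21, adjusted p = 0.293). Of the respiratory genes, Ndufs7 (-0.58, SE 0.28), Tmem177 (-0.88, SE 0.39) and Cox6b2 (-1.48, SE 0.61) had the smallest p in their lists, with adjusted p-values of 0.67 to 0.715.

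After i.v. exosomes, 1.45% of all genes passed against the DED model, and again none of any list. Here complex IV subunits had a median of 0.53 and 16 of 19 had a larger value than the 0.15 of Ndufa4. Cox6c, a structural subunit, had 0.75 (SE 0.21, adjusted p = 0.0894). Complex I subunits had a median of 0.41, and Ndufa3 had the smallest p among them (0.74, SE 0.20, adjusted p = 0.0842), and the assembly factor Cox14 had 0.70 (SE 0.20, adjusted p = 0.102). Without i.v. replicate 3, 10 complex IV and 22 complex I subunits passed as higher, among 1621 of all genes against 308 with it, while without scaling between libraries 3 complex I subunits passed as lower among 3739 genes. The NF-kB list had a median of -0.18 and HIF-1 targets one of -0.09. Csf2, a growth factor for myeloid cells, was at 0 in all 3 i.v. libraries, with a mean of 3.377 ± 2.097 in the DED model (SD, n = 3; adjusted p = 0.103), and Ldha had -0.62 (SE 0.21, adjusted p = 0.149).

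**Figure D4:**
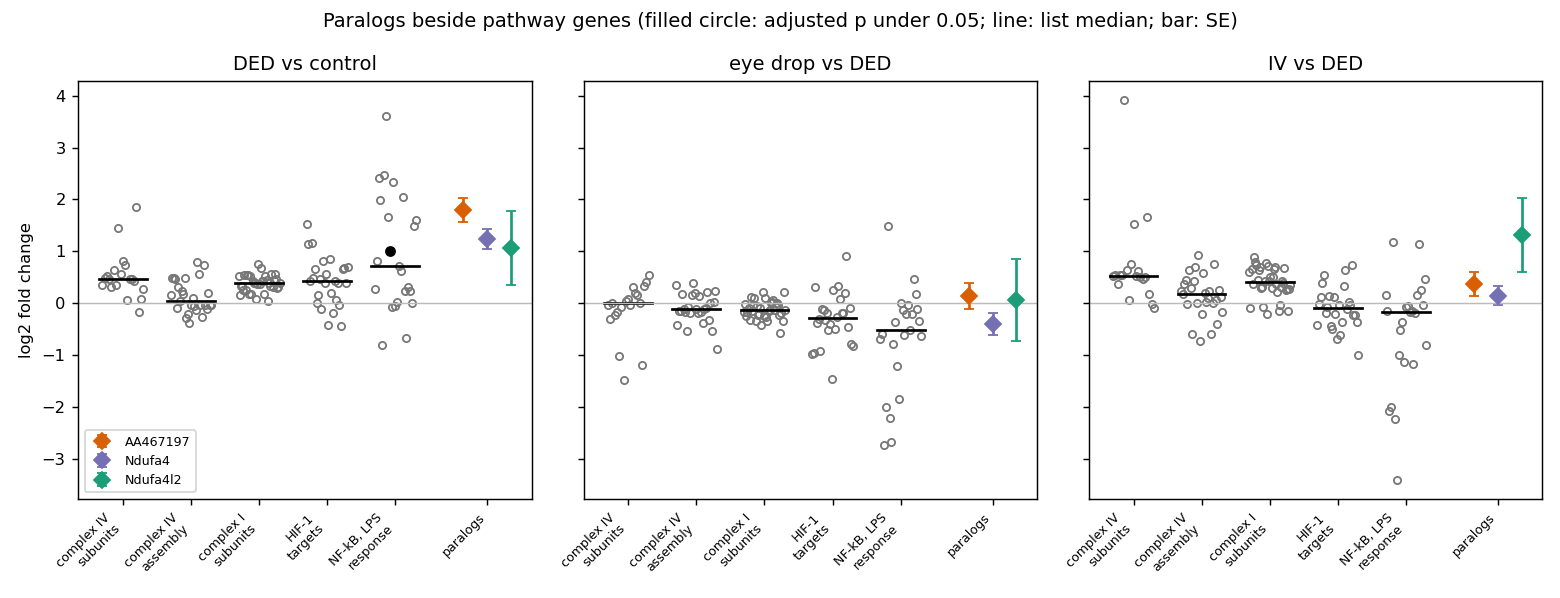
Log2 fold changes (y axis) of the genes of 5 lists (circles, filled where the adjusted p is under 0.05, with a line at the list median) and of the 3 paralogs (diamonds with SE bars) for DED against control, eye drop against DED and i.v. against DED. AA467197 and Ndufa4 lie above nearly all respiratory genes in the first panel, the contrast that chose them, and Ndufa4 lies below most complex IV subunits in the other panels.

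Against controls, the i.v. group differed most. There 11.3% of all genes passed, and so did 12 of 19 complex IV subunits, 25 of 36 complex I subunits and 8 of 27 assembly factors, all higher. Medians were 0.96, 0.88 and 0.35. Cox6c (1.31, SE 0.21, adjusted p = 0.00327), Cox7a2 (1.26, SE 0.21, adjusted p = 0.00354) and Ndufb4 (1.18, SE 0.22, adjusted p = 0.00531) rose, and so did Cox14 (1.19, SE 0.20, adjusted p = 0.00399). The value of Ndufa4 in the same comparison was 1.39, with the controls that also chose it. These counts depended on single libraries: without control replicate 1 they were 3, 3 and 1, and without i.v. replicate 1 they were 6, 12 and 3. Without control replicate 3 they were 9, 15 and 5, and without i.v. replicate 2 they were 8, 12 and 4. Without the 3 libraries highest in muscle, lens and retina markers, a setting that keeps i.v. replicate 2, they were 1, 0 and 0. In these settings, in the order given, 250, 886, 973, 1103 and 184 of all genes were called, against 2405 with all libraries. Of the other lists, 2 of 26 HIF-1 targets (Ndrg1 and Fam162a) and 4 of 23 NF-kB genes (Tnf, Slpi, Birc3 and Sod2) rose. Without control replicate 1 or control replicate 3 none of either list passed. For the eye drop against controls 1 gene of 21203 passed (0.00472%), and that gene was AA467197. Since these controls also drew attention to it, nothing is read from this, and the count was 0 without control replicate 1, control replicate 2, DED replicate 2 or eye drop replicate 2. None of the 5 lists had a member passing there, with medians of 0.44 for complex IV and 0.26 for complex I subunits.

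Markers of other cells moved beside the family. Monocyte and macrophage markers (13 of 13 measured), cells in which AA467197 is known to be induced, summed to 1429 to 1763 normalized counts with i.v. exosomes, 1466 to 1852 with the eye drop, 1330 to 1684 in the DED model and 1031 to 1154 in controls. Controls were below all other libraries in this sum, and none of the 13 passed between the DED model and control. Itgam, which other myeloid cells share, made up much of it. The sum of the other 12 was 846.5, 651.3 and 634.6 with i.v. exosomes, 673.2 and 449.5 with the eye drop, 424.3, 562.3 and 548.1 in the DED model and 372.1, 504.4 and 411.4 in controls, so controls then overlapped the DED and eye drop groups. Cd68, a macrophage marker, was at 175, 159.1 and 163.2 in the DED model and 166.4, 181.9 and 162.3 in controls. Adgre1, the F4/80 antigen, was near 0 throughout, between 1.866 and 13.5. Neutrophil markers (7 of 10 measured) summed to 43.36 to 206 with i.v. exosomes, 48.6 to 57.01 with the eye drop, 82.92 to 525.8 in the DED model and 15.53 to 46.2 in controls. S100a9 made up most of this sum, at 440.2, 114.9 and 78.56 in the DED model and 12.58, 30.8 and 25.19 in controls. Camp, Ngp and Retnlg were at 0 in all DED libraries, and Ly6g was at 0 in all libraries but 1. Markers of conjunctival and other squamous epithelium (10 of 10) summed to 143600 to 179400 with i.v. exosomes and 119300 to 120800 with the eye drop. Their sum was 105800 to 128100 in the DED model and 82850 to 108200 in controls. Between i.v. exosomes and the DED model, where 1.45% of all genes passed, 4 of 9 tested markers of this conjunctival and squamous list rose. These were Krt4, Krt7, Krt8 and Krt13, while Ivl fell. The part of these cells in the levels of AA467197 and Ndufa4 was not tested.

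For Ndufa4l2, which pericytes are known to express, stromal markers (10 of 10) are given by library. Their sum was 6297, 4637 and 4582 with i.v. exosomes, 7768 and 3035 with the eye drop, 3684, 6398 and 8744 in the DED model and 2054, 3721 and 1992 in controls. Stromal sum and Ndufa4l2 had the same order in the eye drop pair and in the controls, but not in the i.v. and DED groups. The i.v. library with the highest stromal sum had the lowest Ndufa4l2 of its group (14.44), and the DED library with the highest stromal sum had 9.601, below the 17.68 of replicate 2. Pericyte and smooth muscle markers (11 of 11) summed to 888 to 1440 with i.v. exosomes, 1005 to 1020 with the eye drop, 1036 to 1350 in the DED model and 1824 to 2102 in controls. Most of that sum was Notch3, which epithelium also expresses, at 518.2 to 1221 with i.v. exosomes and 1710 to 1986 in controls. Rgs5, a defining pericyte gene, was at 21.68 to 43.31 with i.v. exosomes, 27 and 9.088 with the eye drop, 19.88 to 66.34 in the DED model and 5.918 to 10.59 in controls. Vessel markers (10 of 10) summed to 169.5 to 287.4 with i.v. exosomes, 129.7 to 231.3 with the eye drop, 298.3 to 391.7 in the DED model and 50.3 to 121.3 in controls. Between the DED model and control, where 1.25% of all genes passed, 3 of 11 pericyte and smooth muscle markers rose (Rgs5 by 2.14, Pdgfrb by 2.12 and Myh11 by 2.49 on the log2 scale), as did 1 of 10 vessel markers, Tie1 (2.20, adjusted p = 0.00926). Their part in the values of Ndufa4l2 was not tested.

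Other genes whose log2 level followed each relative most closely over the 11 libraries were listed by Pearson r. For AA467197 these were Arf2, a small GTPase of vesicle traffic (0.974), Dap (0.971), the calcium-binding protein gene Pdcd6 (0.958), Gch1, the first enzyme of tetrahydrobiopterin synthesis (0.958), and the epithelial transcription factor gene Elf5 (0.951). Within groups, after the group means were removed, r was 0.947 for Arf2 and 0.431 for Pdcd6, so the first followed AA467197 among replicates as well and the second mainly through the group means. For Ndufa4 the list was Mrpl20 of the mitochondrial ribosome (0.965), the protease inhibitor gene Cstb (0.964), S100a10 (0.964), Atp6v1g1 of the proton pump of lysosomes (0.963) and the proteasome subunit gene Psmc1 (0.958). For Ndufa4l2 it was C1qtnf7 (0.903), the metalloproteinase inhibitor gene Timp2 (0.900), Olfml3 (0.897), the collagen gene Col6a3 (0.878) and the RNA gene Snhg18 (0.876). Among the relatives, r was 0.873 between AA467197 and Ndufa4, 0.674 between AA467197 and Ndufa4l2 and 0.541 between Ndufa4 and Ndufa4l2. Both AA467197 and Ndufa4 were chosen by their DED and control values, so their r is partly fixed by that choice and nothing is read from it. Spearman rho for the same pairs, in the same order, was 0.618, 0.809 and 0.491. These values describe 11 libraries in 4 groups that share size factors. For the Ndufa4l2 list r within groups was 0.755 to 0.876.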

How the data were processed

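Per the labels' protocols, RNA was extracted with a column kit and libraries were made with an NEBNext kit. The submitters' processing notes name the build mm9; the aligner, counter and gene models are not given in the sources here. The authors deposited log2 values in 1 table. In 11 columns, 2 to the power of the deposited log2 value, minus 1, was whole within 0.01 for 99.9748% of values, so they are log2(count + 1), without scaling between samples. The third eye drop column equalled the mean of the other 2 within 5e-09 and was left out. Of 28548 lines, 19 (dates, repeated or not whole; at most 0.0495% of a library) were left out.

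Counts were divided by median-of-ratios size factors. Genes reaching a normalized count of 1 in 3 or more libraries (21203) were fitted with 4 group means in limma 3.58.1 (R 4.3.3; trend, robust) on log2(normalized count + 1), a scale on which fold changes of low genes are understated. Two-sided p-values were corrected by Benjamini-Hochberg within each comparison, with a threshold of 0.05. The fit was run on simulated counts with the same spread setting for every gene and changes in the i.v. group alone. That run says nothing of how the fit handles the uneven libraries here. Intervals and SE cover the spread between these samples only. Limma voom on the recovered counts was the alternative suited to counts. Sequences were compared with Biopython 1.88 and BLAST 2.17.0. The members, gene lists and markers were chosen with earlier results of these data known. Named list genes are up to 3 with the smallest p among those passing, or else the 1 with the smallest p, in each of the DED against control, eye drop against DED and i.v. against DED comparisons. The 5 likest genes were taken among genes with a mean of at least 50 normalized counts (10 for Ndufa4l2), predicted genes left out. Genes named besides these were chosen after their values were seen.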

Additional observations from a re-analysis of the deposited data

How the results depend on the processing

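Of the alternatives run, none turned the sign of AA467197 or Ndufa4 between the DED model and control (1.68 to 1.88 and 1.12 to 1.32 over 11 settings). Left unscaled, i.v. values shifted with their smaller libraries: the median of all genes moved by -0.581 against the DED model, -0.607 against the eye drop and -0.551 against control. Values as deposited were then -0.24 (AA467197) and -0.47 (Ndufa4) for i.v. against DED, -0.45 and -0.14 for i.v. against eye drop, and 1.51 and 0.72 for i.v. against control. With library totals the last pair was 1.83 and 1.04, beside a shift of -0.308. Without DED 3, eye drop 2 and i.v. 1, the libraries richest in markers of neighbouring tissue, Ndufa4l2 was 1.72 for eye drop against DED, -0.02 for i.v. against eye drop and 2.76 for eye drop against control. Leaving out 1 replicate at a time gave Ndufa4l2 ranges of -1.57 to 1.70, -0.38 to 2.88 and -0.51 to 2.76 in those comparisons, with adjusted p of 0.556 to 0.977 for i.v. against eye drop. For i.v. against eye drop it gave -0.005 to 0.477 for AA467197 (adjusted p 0.768 to 1) and 0.384 to 0.695 for Ndufa4 (adjusted p 0.0487 to 0.977). The causes were not tested.

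Counts of all genes called ranged, leaving out 1 library, from 53 (control 1) to 1231 (i.v. 3) for DED against control, 4 (eye drop 2) to 83 for eye drop against DED, 66 (DED 1) to 1621 for i.v. against DED, 0 to 637 for i.v. against eye drop, 0 to 381 for eye drop against control and 250 (control 1) to 4862 for i.v. against control, each highest without i.v. 3. Without trend and robust estimation they were 60, 6, 65, 1, 1 and 370. With the third eye drop column they were 594, 115, 605, 7, 309 and 3429, and as deposited 178, 33, 3739, 1404, 5 and 6517. Same-numbered libraries correlated at -0.15 to 0.241, and 3 of 11 had their closest library of another group under the same number, so the numbers were not taken as pairs. A fit with the replicate block called 212, 26, 358, 0, 1 and 2463 genes, and gave Ndufa4 0.55 (adjusted p = 0.439), AA467197 0.09 (adjusted p = 0.931) and Ndufa4l2 1.25 (adjusted p = 0.684) for i.v. against eye drop. It changed no call on the family. Depth limits Ndufa4l2, with 3 to 36 reads per library.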
